A study of Homo sapiens with 6 samples.

Results

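Chemokines and cytokines are the secreted or membrane-held proteins with which an epithelial cell calls in and instructs leukocytes and its own neighbours. The 35 genes described here were taken by symbol from a table of 19395 genes. They comprise 18 chemokines and 17 cytokines, and every symbol was found in the table. The counts come from 6 libraries of polyadenylated RNA from human cells labelled DLD-1, an established line grown from a human colorectal tumour. Of these, 3 libraries are oeTNFRSF12A, given doxycycline at 0.1 µg/mL for 48 h to induce TNFRSF12A, and 3 are oeControl, labelled WT and untreated. TNFRSF12A (Fn14) is the receptor of the TNF-family ligand TWEAK. The treatment protocol attached to every library, controls included, describes the doxycycline induction, so whether the controls received doxycycline is not certain from the labels. If they did not, as their treatment label says, exposure to doxycycline and the transgene cannot be told apart. The labels do not say whether the control cells carry an empty vector, which promoter drives the transgene, whether the cells are a clone or a pool, or whether replicates are separate cultures, so a p-value here reflects only how far the libraries scatter, which may be technical.

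Chemokines are small proteins that steer leukocytes along gradients through G protein-coupled receptors. CXC chemokines with a glutamate-leucine-arginine (ELR) motif attract neutrophils through CXCR2, CC chemokines mostly act on monocytes, lymphocytes and eosinophils, and CX3CL1 and CXCL16 are held on the membrane until a protease sheds them. Many of these genes are transcribed by NF-kB, which receptors of the TNF family activate, and their messenger RNAs are often short-lived. Among the cytokines, IL6, IL11, LIF and CLCF1 signal through the shared receptor chain gp130, and IL1B and IL18 are made as precursors that inflammatory caspases cut.

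The upstream sequences of 8 of the genes are printed because they hold the same short NF-kB element while their transcripts did not move alike. Each stretch is the 140 bases before the gene start in RefSeq (GRCh38.p14), read 5′ to 3′ on the gene's own strand, and capitals mark matches to GGANNTTCC (the core of an NF-kB element) or TGANTCA (an AP-1 element) on either strand. The positions are CXCL1 chr4:73869253-73869392 (plus strand), CXCL2 chr4:74099196-74099335 (minus strand), CXCL3 chr4:74038690-74038829 (minus strand), CXCL5 chr4:73998678-73998817 (minus strand), CXCL6 chr4:73836538-73836677 (plus strand), CXCL8 chr4:73740429-73740568 (plus strand), CXCL11 chr4:76036071-76036210 (minus strand), IL32 chr16:3065263-3065402 (plus strand). For IL32, which has more than 1 start in the table, the most upstream start is shown.
CXCL1: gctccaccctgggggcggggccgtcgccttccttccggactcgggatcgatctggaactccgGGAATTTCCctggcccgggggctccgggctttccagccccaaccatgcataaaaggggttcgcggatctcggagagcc
CXCL2: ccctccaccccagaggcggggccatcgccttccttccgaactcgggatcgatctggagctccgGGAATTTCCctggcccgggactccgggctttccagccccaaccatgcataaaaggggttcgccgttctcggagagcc
CXCL3: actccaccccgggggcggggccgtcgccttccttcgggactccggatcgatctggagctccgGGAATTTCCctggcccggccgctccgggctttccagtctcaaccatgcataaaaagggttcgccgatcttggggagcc
CXCL5: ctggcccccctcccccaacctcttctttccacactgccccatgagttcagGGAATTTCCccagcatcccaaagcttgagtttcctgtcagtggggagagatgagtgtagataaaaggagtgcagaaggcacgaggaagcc
CXCL6: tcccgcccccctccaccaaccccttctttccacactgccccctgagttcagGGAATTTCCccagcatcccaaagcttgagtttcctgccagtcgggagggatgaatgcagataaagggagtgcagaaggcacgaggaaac
CXCL8: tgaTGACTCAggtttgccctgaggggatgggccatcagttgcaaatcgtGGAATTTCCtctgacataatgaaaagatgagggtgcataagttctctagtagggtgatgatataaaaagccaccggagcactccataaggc
CXCL11: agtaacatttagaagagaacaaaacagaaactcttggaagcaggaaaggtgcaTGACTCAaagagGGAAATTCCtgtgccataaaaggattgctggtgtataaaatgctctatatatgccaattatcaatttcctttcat
IL32: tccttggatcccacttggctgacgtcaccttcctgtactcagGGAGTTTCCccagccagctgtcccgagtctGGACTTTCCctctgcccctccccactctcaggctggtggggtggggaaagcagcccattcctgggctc
All 6 ELR+ CXC chemokine genes carry the identical 9 bases GGAATTTCC. They begin 77 bases before the start in CXCL2, 78 in CXCL1 and CXCL3, 89 in CXCL6, 90 in CXCL5 and 91 in CXCL8. The CXCL8 stretch alone of these 6 also holds an AP-1 match, beginning 137 bases before the start. CXCL11 pairs GGAAATTCC with an AP-1 match further upstream, and IL32 holds the NF-kB letters as GGAGTTTCC and again as GGACTTTCC. Sequences of 25 of the 35 members were matched in windows from 250 bases before to 50 bases after the start, and 12 of the 25 held GGANNTTCC, a motif found in 4.56% of all 35116 promoter windows and for 5.57% of genes. The AP-1 letters were found for 7 of the 25, against 9.37% of all genes. A match describes the letters only. Of the 12 genes with the NF-kB letters 9 could be tested for a difference between the groups, of which 4 were higher in oeTNFRSF12A, 1 was lower and 4 did not pass. Of the 13 without them 4 could be tested, of which 0 were higher, 2 were lower and 2 did not pass. CCL2, CCL5, CX3CL1, CSF1 and IL34 were also higher, but no sequence was matched for them. The letters were thus not searched for in these genes. Over all 12758 tested genes 21.2% were higher and 21.1% lower, and at these numbers no difference between genes with and without the letters is read from the counts.

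Library totals ranged from 18154839 to 18406885 counts, so 1 CPM (a count scaled by library size) is about 18 counts. TNFRSF12A itself had 404, 365 and 423 counts in the oeControl libraries and 1203, 1133 and 1305 in the oeTNFRSF12A libraries, 3.00-fold higher in the fit. Of 18 colon epithelium markers 14 stayed under 1 CPM in every library, with 13 counts of EPCAM and 4 of CDX2 over all 6 libraries and 0 of CEACAM5, while CDH1, KRT8 and KRT18 reached 1 CPM in every library. The labelled colon identity thus lacks most of its defining markers in these data. Leukocytes, a main source of cytokines in tissue, left little trace: CD3E, MS4A1, NKG7 and FCGR3A were at 0 in all libraries, CD14 and CD68 reached 1 CPM in all, and the 10 leukocyte markers summed to 6.72 to 8.46 CPM in oeControl and 6.92 to 8.57 CPM in oeTNFRSF12A. The 9 fibroblast markers summed to 1558 to 1668 CPM in oeControl and 1119 to 1166 CPM in oeTNFRSF12A. Collagen genes carried these sums, with DCN and LUM at 0. Of 5 tested, 2 were higher and 2 lower, against 21.2% higher and 21.1% lower over all tested genes. Of 6 endothelial markers 5 stayed under 1 CPM in every library, VWF and TEK were at 0, and the sums were 1.27 to 1.77 and 0.70 to 1.09 CPM. The part of the fibroblast and endothelial markers in the results below was not tested. In these bulk libraries, fewer cells of a type and less RNA per cell cannot be told apart.

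Chemokine and cytokine transcripts moved in both directions. Of the 35 members 22 had enough counts to be tested, and at an adjusted p under 0.05 (edgeR's quasi-likelihood test, Benjamini-Hochberg adjustment over all 12758 tested genes, as throughout) 9 were higher in oeTNFRSF12A, 5 were lower and 8 did not pass. Over all tested genes 21.2% were higher and 21.1% lower, against 40.9% and 22.7% of the tested members. Without oeControl replicate 3 the count of lower members was 3, as CXCL8 and CXCL16 no longer passed. With a fitted fold of at least 1.5 added to the rule, 6 members were higher (CCL2, CCL5, CX3CL1, CXCL5, IL32 and IL34) and 3 lower (CCL28, IL1B and LIF), where the background was 1.44% of all tested genes higher and 4.26% lower. The median log2 fold change of the tested members was 0.15 beside 0.0032 for all tested genes, and the median absolute log2 fold change was 0.38 beside 0.14. These counts leave out 13 members with few or no counts, and IL34 entered the test through its oeTNFRSF12A libraries alone, so it had to differ.

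**Figure D1:**
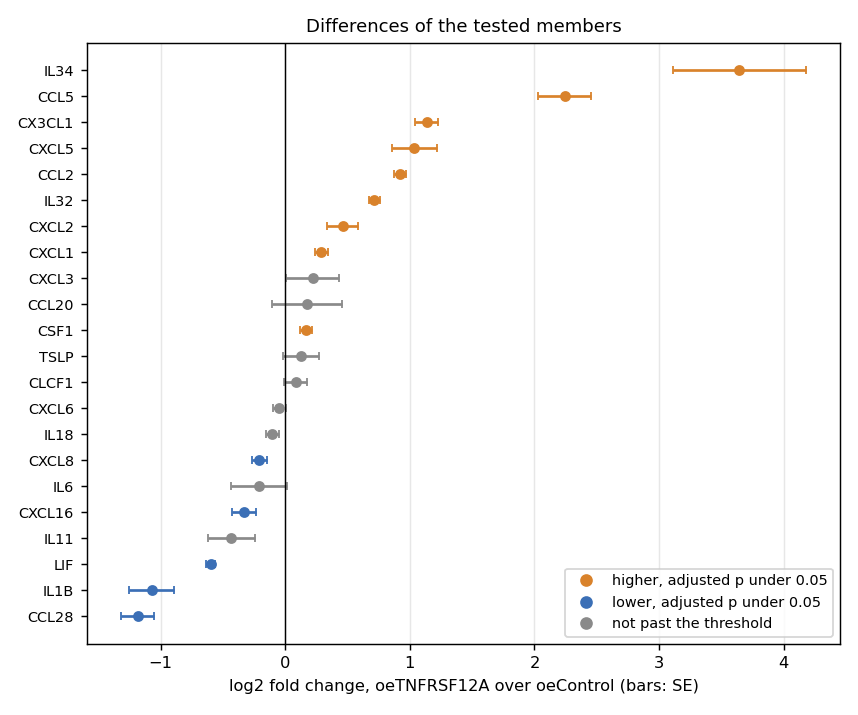
Log2 fold change of oeTNFRSF12A over oeControl for each of the 22 tested members, with bars of 1 SE from the edgeR fit and colours for the call at an adjusted p under 0.05. IL34 (3.64) and CCL5 (2.24) stand at the top and CCL28 (-1.19) at the bottom, and 8 members in grey did not pass.

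Per length of transcript, CCL2 was the most abundant member in both groups. Levels between genes are compared here as CPM per kb of the longest coding transcript in GENCODE release 29, although which isoforms the cells use is unknown. In oeControl, CCL2 stood at 46.1 CPM per kb and IL18 at 39.2 CPM per kb. Next came CXCL1, whose libraries spread from 33.0 to 37.0 CPM per kb, and IL32 at 34.9 CPM per kb, which lies inside that spread. They were followed by CXCL8 at 29.5, LIF at 22.1, CXCL6 at 18.2 and CSF1 at 16.3 CPM per kb. In oeTNFRSF12A, CCL2 reached 87.1 CPM per kb, IL32 had moved to rank 2 with 57.4 CPM per kb, and LIF stood at rank 8 with 14.6 CPM per kb. The summed level of all 35 members was 452.6 to 466.0 CPM in the oeControl libraries and 499.4 to 506.3 CPM in the oeTNFRSF12A libraries, so the sums did not overlap.

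**Figure D2:**
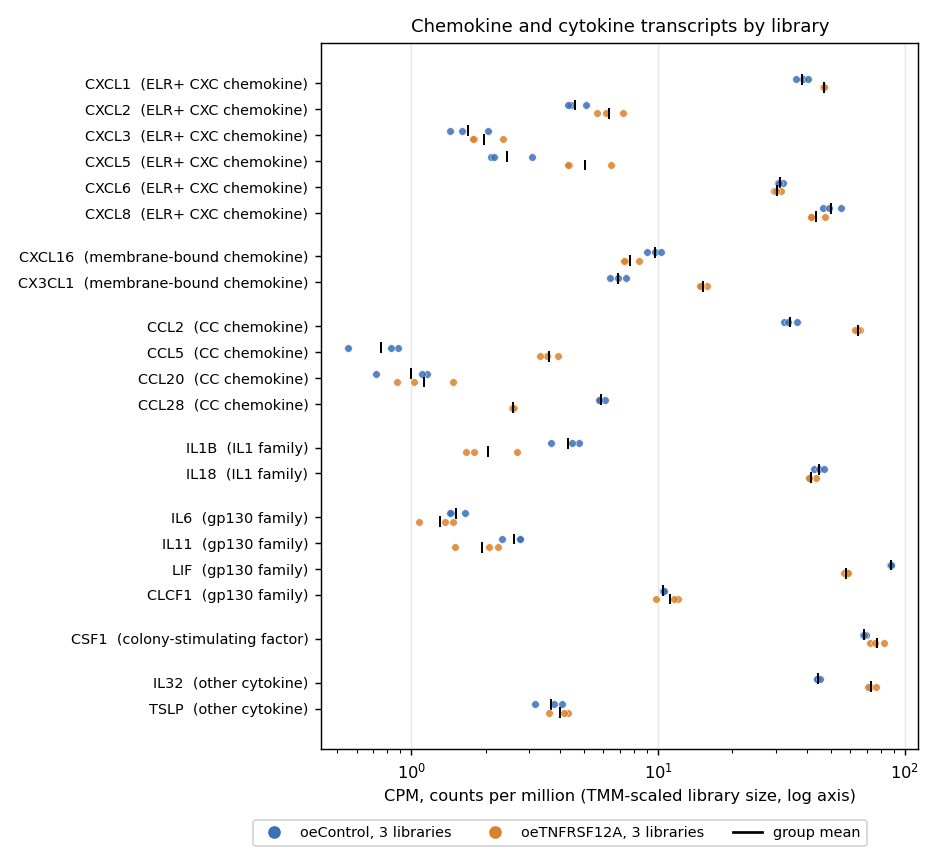
CPM per library on a log axis for the tested members with counts in every library (IL34 is left out because 2 of its control libraries were at 0), with a black line at each group mean. CCL2, CCL5, CX3CL1, CXCL5 and IL32 show oeTNFRSF12A points to the right of all oeControl points, and CCL28, IL1B and LIF show them to the left.

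Values joined by "and then" are those of oeControl followed by those of oeTNFRSF12A. The CC chemokines split, with CCL5 and CCL2 higher and CCL28 lower. CCL5 (RANTES), which draws T cells, monocytes and eosinophils, had 10, 16 and 15 counts in the oeControl libraries and 65, 61 and 73 in the oeTNFRSF12A libraries. Every oeTNFRSF12A library lay far above every oeControl library. The mean rose from 0.76 ± 0.18 to 3.60 ± 0.31 CPM (SD, n = 3 per group), a log2 fold change of 2.24 (SE 0.21, adjusted p = 6.74e-09). CCL5 remained a scarce transcript at this level, and its gene occupies chromosome 17, 35871491 to 35880793, minus strand (GRCh38 with GENCODE release 29).

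CCL2 (MCP-1), the main attractant of CCR2-bearing monocytes, had 658, 585 and 609 counts in oeControl and 1211, 1187 and 1165 in oeTNFRSF12A. The groups did not overlap, and CCL2 averaged 34.1 ± 2.13 CPM in oeControl and 64.5 ± 1.67 CPM in oeTNFRSF12A (log2 fold change 0.92, SE 0.05, adjusted p = 2.05e-13). Its neighbour CCL7 (MCP-3), another monocyte attractant, begins 13017 bp downstream on chromosome 17. CCL7 had 0 counts in all 6 libraries, which allows at most 0.055 CPM in oeControl and 0.054 CPM in oeTNFRSF12A at 3 counts per group. Thus the rise at this locus was measured for CCL2 with no counts of CCL7 beside it.

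CCL28, a mucosal chemokine that attracts lymphocytes bearing CCR10 or CCR3, went the other way. Its counts were 105, 110 and 105 in oeControl and 47, 48 and 48 in oeTNFRSF12A. Libraries of a group were almost alike, and the mean fell from 5.90 ± 0.16 to 2.59 ± 0.025 CPM (log2 fold change -1.19, SE 0.13, adjusted p = 1.11e-07). CCL20, the ligand of CCR6 on Th17 cells and dendritic cells, had 13, 21 and 20 counts in oeControl and 16, 27 and 19 in oeTNFRSF12A, and the groups overlapped (log2 fold change 0.17, SE 0.28, adjusted p = 0.650). The eosinophil attractant CCL26 had 1 count over all libraries.

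The membrane-held chemokines also parted. CX3CL1 (fractalkine), which tethers CX3CR1-bearing monocytes and lymphocytes, had 124, 134 and 116 counts in oeControl and 288, 273 and 275 in oeTNFRSF12A. All oeTNFRSF12A libraries had more than double the count of any oeControl library, and CX3CL1 averaged 6.89 ± 0.51 CPM and then 15.1 ± 0.50 CPM (log2 fold change 1.13, SE 0.09, adjusted p = 2.36e-10). CXCL16, the ligand of CXCR6 and a scavenger receptor for oxidised lipoprotein, had 163, 175 and 187 counts in oeControl and 135, 134 and 156 in oeTNFRSF12A. It was lower by a smaller amount, from 9.67 ± 0.63 to 7.69 ± 0.62 CPM (log2 fold change -0.33, SE 0.10, adjusted p = 0.00928). The CXCL16 call did not hold without oeControl replicate 3 (adjusted p = 0.0529) or with DESeq2 (adjusted p = 0.0589), and the opposite-strand gene MED11, which overlaps 85 bp of CXCL16 exon, did not pass (log2 fold change -0.0020). CX3CL1 levels stood below CXCL16 levels in oeControl and above them in oeTNFRSF12A on the CPM scale, but per kb CXCL16 was higher than CX3CL1 in both groups (4.35 against 1.19 and 3.46 against 2.61 CPM per kb).

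The ELR+ CXC chemokines shifted in make-up more than in amount. Of the 6 genes 3 were higher (CXCL1, CXCL2 and CXCL5) and 1 was lower (CXCL8). Among all tested genes 21.2% were higher and 21.1% lower. All 6 ELR+ genes lie within 359 kb of chromosome 4, from 73740506 to 74099293. CXCL5 (ENA-78) had 38, 39 and 56 counts in oeControl and 118, 80 and 80 in oeTNFRSF12A. Its lowest oeTNFRSF12A library was above its highest oeControl library, and the means were 2.45 ± 0.55 and 5.04 ± 1.22 CPM (log2 fold change 1.04, SE 0.18, adjusted p = 8.67e-05). CXCL1 (GRO-alpha) had 694, 655 and 737 counts in oeControl and 855, 862 and 877 in oeTNFRSF12A. The 3 oeTNFRSF12A libraries of CXCL1 were almost equal and all higher, 47.0 ± 0.29 CPM after 38.4 ± 2.18 CPM (log2 fold change 0.29, SE 0.05, adjusted p = 5.34e-05). CXCL2 (GRO-beta) had 92, 80 and 78 counts and then 132, 113 and 105, again without overlap (log2 fold change 0.46, SE 0.13, adjusted p = 0.00503).

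CXCL8 (interleukin 8), a potent neutrophil attractant, had 841, 888 and 1000 counts in oeControl and 869, 762 and 771 in oeTNFRSF12A. The ranges overlapped, as oeTNFRSF12A replicate 1 lay above oeControl replicate 1. The mean fell from 50.3 ± 4.32 to 43.5 ± 3.40 CPM (log2 fold change -0.21, SE 0.06, adjusted p = 0.00985). The call was lost without oeControl replicate 3 (log2 fold change -0.14, adjusted p = 0.0820) or oeTNFRSF12A replicate 2 (-0.18, adjusted p = 0.0523). CXCL6 (GCP-2) had 554, 580 and 562 counts in oeControl and 576, 539 and 556 in oeTNFRSF12A, with no difference past the threshold (log2 fold change -0.05, SE 0.05). CXCL3 (GRO-gamma), the least counted of the 6, had 26 to 37 counts in oeControl and 33 to 43 in oeTNFRSF12A (log2 fold change 0.22, SE 0.21, adjusted p = 0.425). The upstream stretches of CXCL5 and CXCL6 printed above carry the same NF-kB letters, and their transcripts differed by 1.04 and -0.05 on the log2 scale.

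Summed over the 6 genes, the libraries held 124.7 to 135.4 CPM in oeControl and 130.2 to 141.5 CPM in oeTNFRSF12A, and the ranges overlapped. Within that sum CXCL8 made up 39.0% ± 1.63 of the counts in oeControl and 32.4% ± 0.95 in oeTNFRSF12A (SD, n = 3). CXCL1 took 29.9% ± 1.07 and then 35.1% ± 1.83, so that CXCL8 was the most counted of the 6 in every oeControl library, and CXCL1 in 2 of the 3 oeTNFRSF12A libraries. CXCL5 took 1.89% ± 0.33 and then 3.73% ± 0.71. These shares are descriptions with no test of their own. CXCL1, CXCL2 and CXCL3 are close copies, and 5.73% of the 50-base stretches of CXCL1 occur unchanged in CXCL2, 5.26% of those of CXCL3 do, and 0.57% of those of CXCL1 occur in CXCL3. Reads from such stretches were divided by the authors' estimation, so a small part of these 3 counts is uncertain.

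**Figure D3:**
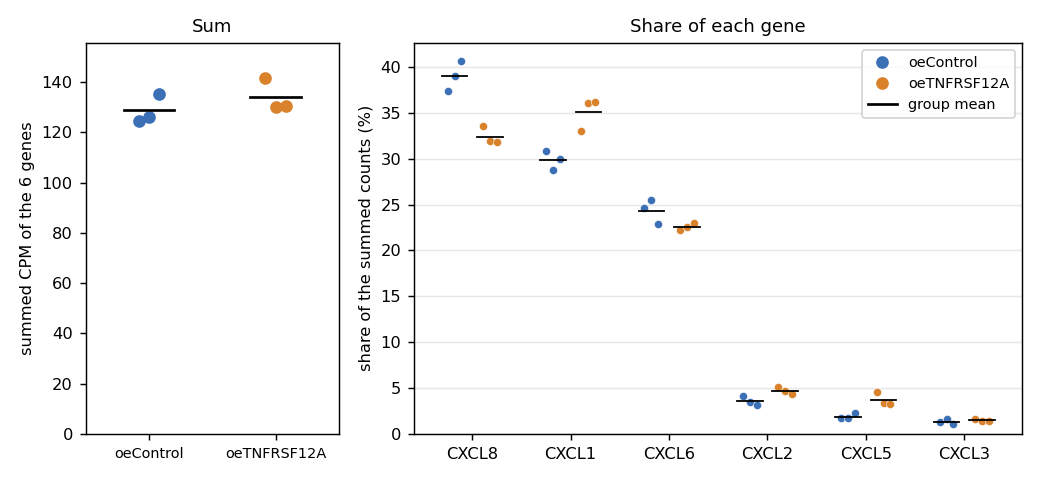
Left, summed CPM of CXCL1, CXCL2, CXCL3, CXCL5, CXCL6 and CXCL8 in each library, and right, each gene's share in percent of their summed counts, with black lines at group means. The sums of the groups overlap, while the CXCL8 share is 31.8% to 33.5% in oeTNFRSF12A and 37.4% to 40.7% in oeControl.

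CXCL10 and CXCL11, interferon-inducible ligands of CXCR3 that recruit activated T cells, had too few counts to be tested. CXCL11 had 2, 2 and 0 counts in oeControl and 11, 6 and 5 in oeTNFRSF12A. The oeTNFRSF12A libraries were all higher, and the summed counts of 4 and 22 gave a ratio, scaled by library size, of 5.40 (exact 95% counting interval 1.84 to 21.6). That ratio fell to 3.60 without oeControl replicate 3. CXCL10, 10.2 kb away on chromosome 4, had 7, 13 and 4 counts in oeControl and 2, 2 and 5 in oeTNFRSF12A. Its groups overlapped, and the sums of 24 and 9 gave a ratio of 0.37 (0.15 to 0.82). CXCL11 passed when no filter was applied (adjusted p = 0.00713), while CXCL10 did not (adjusted p = 0.0564). CXCL12, the ligand of CXCR4, and CXCL14 had 0 counts in all libraries.

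Of the colony-stimulating factors, CSF1 rose, and IL34 had few counts, most of them in oeTNFRSF12A. IL34, a ligand of the macrophage receptor CSF1R, had 0, 5 and 0 counts in oeControl and 23, 22 and 23 in oeTNFRSF12A. The oeTNFRSF12A libraries were nearly equal, and all 5 control counts came from oeControl replicate 2. The ratio of summed counts was 13.4 (exact 95% counting interval 5.45 to 42.5), and without oeControl replicate 2 the control sum was 0 and IL34 was at least 14.9-fold higher, with 3 counts set over that group. Without oeControl replicate 1 or 3 the ratio was 8.92 or 8.89. The fitted log2 fold change was 3.64 (SE 0.54) and was 7.50 without oeControl replicate 2, a value that depends on the prior count. No p-value is given for IL34, since the filter let it in through the group where it is high. CSF1 (M-CSF), the other ligand of CSF1R and a far more abundant transcript, had 1253, 1221 and 1240 counts in oeControl and 1319, 1392 and 1534 in oeTNFRSF12A. The rise was small, with 68.4 ± 1.00 CPM in oeControl and 76.8 ± 5.40 CPM in oeTNFRSF12A (log2 fold change 0.17, SE 0.05, adjusted p = 0.00516).

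CSF2 (GM-CSF) and CSF3 (G-CSF), growth factors of myeloid cells, were near the limit of detection. CSF2 had 2, 3 and 4 counts in oeControl and 7, 6 and 6 in oeTNFRSF12A, a ratio of 2.07 whose counting interval of 0.89 to 5.21 includes no change. CSF3 had 10, 11 and 9 counts and then 5, 6 and 7, a ratio of 0.59 (0.31 to 1.09). The libraries of the groups did not overlap for either gene, but at this depth the ratios are not told apart from 1.

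In the gp130 family, LIF carried the change. LIF, which acts on stem cells and in the acute phase response, had 1576, 1594 and 1596 counts in oeControl and 1070, 1038 and 1092 in oeTNFRSF12A. The groups were far apart, and the mean fell from 87.8 ± 0.38 to 57.9 ± 1.21 CPM (log2 fold change -0.60, SE 0.04, adjusted p = 8.94e-12). LIF shares 175 bp and 92 bp of exon with antisense gene models that have no row in the table, so reads of these cannot be told apart without a stated strand setting. IL11, a cytokine tied to fibrosis and epithelial repair, had 42, 50 and 50 counts and then 41, 38 and 28. Its CPM ranges did not overlap, yet it did not pass (log2 fold change -0.43, SE 0.19, adjusted p = 0.0682), although it did without oeTNFRSF12A replicate 1 (-0.55, adjusted p = 0.0479). IL6, the founding member of the family, stayed at 26 to 30 counts in oeControl and 20 to 27 in oeTNFRSF12A (log2 fold change -0.21, SE 0.23, adjusted p = 0.477), and 428 bp of its exons lie opposite an antisense gene model. CLCF1, a B cell stimulating factor, had 189 to 192 and then 180 to 220 counts (log2 fold change 0.08, SE 0.09, adjusted p = 0.480). The summed level of these 4 genes was 102.4 ± 0.67 CPM in oeControl and 72.3 ± 0.62 CPM in oeTNFRSF12A.

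Of the IL1 family, IL1B was lower and IL18 did not pass. IL1B, a fever-inducing cytokine, had 86, 81 and 67 counts in oeControl and 49, 33 and 31 in oeTNFRSF12A. All oeTNFRSF12A libraries were below all oeControl libraries, and the mean fell from 4.31 ± 0.56 to 2.05 ± 0.55 CPM (log2 fold change -1.07, SE 0.18, adjusted p = 3.00e-05). IL18, a constitutive epithelial cytokine that induces interferon gamma, had 776, 813 and 852 counts and then 797, 754 and 760. The groups overlapped (log2 fold change -0.10, SE 0.05, adjusted p = 0.0961). IL1A, whose gene lies 45.2 kb from IL1B on chromosome 2, had 1, 1 and 3 counts and then 0, 3 and 0. IL33, an alarmin, had 1 count over all libraries.

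IL32, a human cytokine that is absent from rodents, had 792, 799 and 820 counts in oeControl and 1318, 1399 and 1313 in oeTNFRSF12A. The oeTNFRSF12A libraries were all far above the oeControl libraries, and the mean went up from 44.4 ± 0.64 to 73.0 ± 2.89 CPM (log2 fold change 0.72, SE 0.04, adjusted p = 3.20e-12). The IL32 gene (chromosome 16, 3065297 to 3082192, plus strand) starts 42.9 kb past the end of TNFRSF12A. Its exons overlap 129 bp of a same-strand small nuclear RNA pseudogene that has no row in the table. TNF, the founding ligand of the TNF family, had 4, 5 and 4 counts in oeControl and 0, 2 and 2 in oeTNFRSF12A. The sums of 13 and 4 gave a ratio of 0.30 (exact 95% counting interval 0.07 to 0.98), and TNF did not pass without a filter (adjusted p = 0.128). TSLP, an epithelial cytokine of type 2 immunity, had 57 to 74 counts and then 66 to 79 (log2 fold change 0.13, SE 0.14, adjusted p = 0.512).

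IL12A and IL23A encode the partner chains of IL12B in the heterodimers IL-12 and IL-23. IL12A had 10, 13 and 12 counts and then 5, 10 and 5, a ratio of summed counts of 0.56 whose counting interval of 0.31 to 1.00 borders on no change. IL23A had 4, 2 and 1 counts and then 3, 8 and 2, with overlap. IL12B itself had 2 counts over all libraries. The intervals given here cover counting error only.

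**Figure D4:**
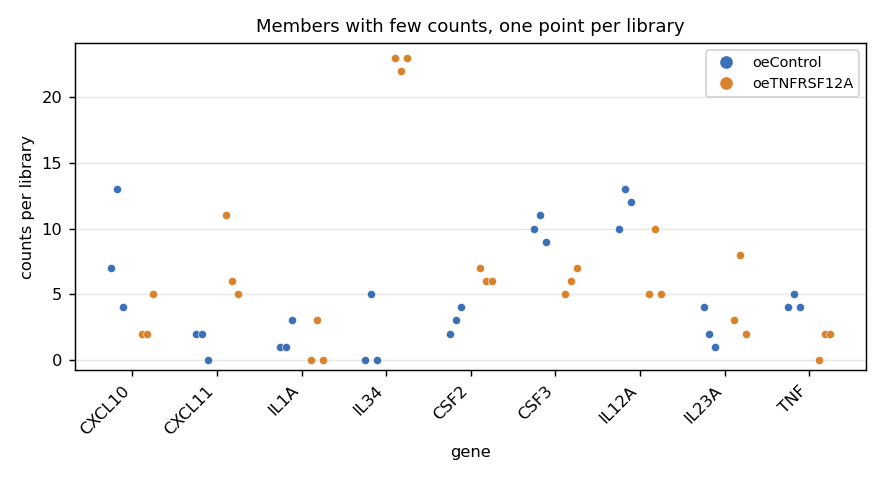
Counts per library of the 9 members with fewer than 10 counts per library on average in at least 1 group and a summed count above 3 in at least 1 group, on a linear axis. IL34, CXCL11 and CSF2 lie higher in all oeTNFRSF12A libraries, and TNF and CSF3 lie lower in all of them.

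In CPM, 14 of the 22 tested members had all libraries of one group above all of the other, 9 higher and 5 lower in oeTNFRSF12A. Among all tested genes 51.3% were apart in this way, 25.7% in each direction. The called member whose ranges overlapped was CXCL8, and the member with ranges apart that was not called was IL11.

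Receptors for these ligands were mostly scarce in the cells' RNA, with 26 of 38 genes under 1 CPM in every library. Several cytokine receptor chains were abundant, among them IL6ST, OSMR, TNFRSF1A and IL6R. Of 15 chemokine receptor genes 13 stayed under 1 CPM in every library, and CXCR1, CXCR2, CCR3, CCR6 and ACKR3 had 0 counts in all. CCR2 and CX3CR1, the receptors of CCL2 and CX3CL1, had 1 count each over all libraries, and CSF1R had 8. The exceptions among the chemokine receptors were CXCR4 and CCR10, a receptor of CCL28, which were tested and did not pass (CCR10 log2 fold change -0.31, adjusted p = 0.193). In the whole receptor list 12 of 38 genes were tested, 1 was called higher and 5 fell, and the median was -0.25 on the log2 scale. The shares over all tested genes were 21.2% higher and 21.1% lower. IL6R, the ligand-binding chain for IL6, fell from 1556, 1516 and 1518 counts in oeControl to 1158, 1124 and 1094 in oeTNFRSF12A (log2 fold change -0.47, adjusted p = 1.65e-09). OSMR, the oncostatin M receptor chain, fell from 255.6 ± 7.05 to 196.0 ± 1.78 CPM (-0.38, adjusted p = 5.39e-10). It is counted in the list although oncostatin M is not among the members. IL1R1 (-0.44) and TNFRSF1A (-0.27), signalling receptors of IL1 and TNF, fell too, with adjusted p-values of 5.87e-04 and 2.96e-06. TNFRSF1B, another TNF receptor, went the other way with few counts and was not tested. It had 2, 1 and 0 counts in oeControl and 12, 8 and 11 in oeTNFRSF12A. IL6ST, which encodes gp130, had 802.4 ± 18.3 and 833.2 ± 34.9 CPM and did not pass (log2 fold change 0.05, adjusted p = 0.179), although it did without oeTNFRSF12A replicate 3 (0.09, adjusted p = 0.0121). The gene called higher was CRLF2, a chain of the TSLP receptor, from 3 to 8 counts per oeControl library to 13 to 24 per oeTNFRSF12A library (log2 fold change 1.62). CRLF2 passed the filter on low counts through its oeTNFRSF12A libraries alone, so it had to differ, and its call supports nothing. CXCR4, CCR10, IL6ST, CRLF2 and the receptors given by counts were picked for their ligands after their values were seen.

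Among enzymes, partners and antagonists of the members 14 of 22 were tested, 4 rose and 2 fell, and the median was 0.10 on the log2 scale. Beside these counts stand 21.2% higher and 21.1% lower of all tested genes. DPP4, a peptidase that trims the amino end of CXCL10, CXCL11 and CCL5, fell from 40, 40 and 37 counts in oeControl to 13, 13 and 11 in oeTNFRSF12A (log2 fold change -1.68, SE 0.24, adjusted p = 3.88e-06). EBI3, a partner chain of IL-27 and IL-35, rose from 14, 20 and 19 counts to 34, 37 and 53 (1.20, SE 0.24, adjusted p = 2.81e-04). RHBDF2, which carries the TNF sheddase ADAM17 to the surface, rose by 0.24 and the proteoglycan SDC1 fell by 0.22 on the log2 scale (adjusted p = 5.55e-04 and 4.12e-04). ADAM17 and ADAM10, the proteases that shed CX3CL1 and CXCL16, had log2 fold changes of 0.02 and 0.03 and did not pass. They and IL12B were named for their roles after their values were seen.

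Transcription factors that act on cytokine genes were all tested, and of 23 genes 6 rose and 6 fell (median log2 fold change 0.01). The shares over all tested genes were 21.2% higher and 21.1% lower. The NF-kB subunits NFKB2 (1.41) and RELB (0.87) rose, as did STAT3 (0.34), which carries gp130 signals, with adjusted p-values of at most 1.47e-09. RELA, another NF-kB subunit, had 56.1 ± 2.50 and 55.7 ± 0.95 CPM (log2 fold change -0.01, adjusted p = 0.850). Of the remaining NF-kB subunits NFKB1 rose (0.55, adjusted p = 1.74e-09) and REL did not pass (-0.05, adjusted p = 0.624). CEBPD, a factor of acute phase and IL6 genes, fell by 0.91 on the log2 scale (adjusted p = 3.64e-08). RELA, NFKB1, REL and CEBPD were chosen after their values were seen. Of 18 regulators of messenger RNA decay 5 rose and 3 fell (median 0.06 on the log2 scale), beside the same 21.2% and 21.1%. The decay factors ZFP36L1 (-0.23) and ZFP36L2 (-0.35), which bind AU-rich elements of cytokine transcripts, fell, and the stabilising protein ELAVL1 (0.15) and the deadenylase scaffold CNOT1 (0.12) rose (adjusted p of at most 0.00350).

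**Figure D5:**
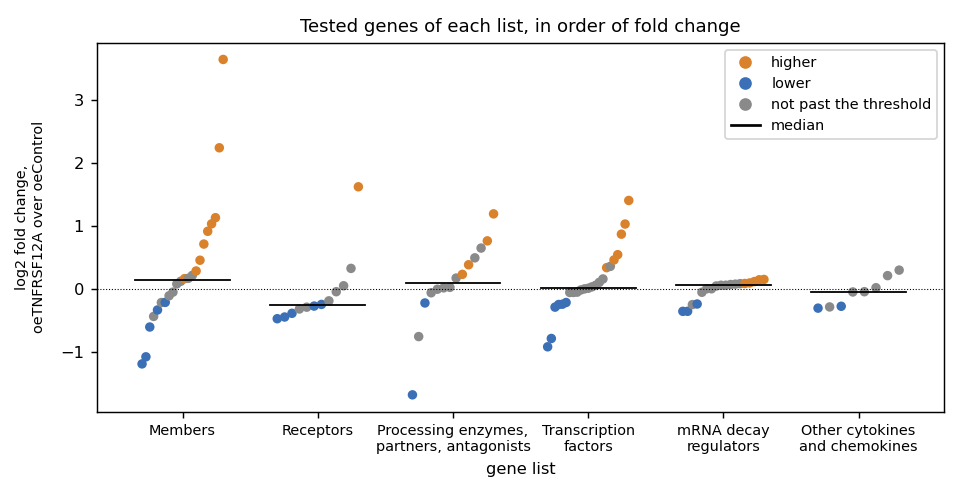
Log2 fold change of oeTNFRSF12A over oeControl for the tested members and for the tested genes of 5 related lists, sorted within each list, with a black line at the median. The members reach from -1.19 to 3.64, and the decay regulators stay between -0.35 and 0.15.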

How the data were processed

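RNA from 6 libraries was counted per gene symbol by the submitters. The deposited values are read as the authors' expected counts, estimated per gene from aligned reads and deposited as whole numbers, since the submitters' processing notes name RSEM 1.3.1 beside HISAT2 2.2.1, Bowtie2 2.4.5 and the builds GRCh38 and hg38, with no roles; the labels used here state neither the annotation nor the strand setting. All values were whole, so rounding changed none. The row that names no gene held 0 counts and was left out.

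In R 4.3.3 with edgeR 4.0.16, filterByExpr by group (minimum count 10) kept 12758 genes, TMM factors scaled the libraries, and the robust quasi-likelihood F test compared oeTNFRSF12A with oeControl, adjusted by Benjamini-Hochberg. SE is the log2 fold change over the root of F. CPM uses TMM-scaled library sizes, with SD over 3 libraries. Ratios of few counts are summed counts over summed TMM-scaled library sizes, with Clopper-Pearson 95% intervals and a floor of 3 counts over a group at 0. PCR copies are not independent molecules, so intervals and floors cover counting error only. Positions and exon overlaps come from GENCODE release 29 (GRCh38), promoters from RefSeq (GRCh38.p14).

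The members and the lists were chosen with earlier results of these data known. Every member is named, and of each list the 4 tested genes with the lowest adjusted p, except where an item is not reported here. Pairs of libraries of a group gave a chi-square of 1.63 to 3.43 per gene over 12219 genes (18.3 to 20.6 across groups), more than sampling noise gives, and none was merged. The fit was tested on simulated counts. Alternatives were DESeq2 1.42.0 and its size factors, library totals, no filter, a replicate block and leaving out each library.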

Additional observations from a re-analysis of the deposited data

How the results depend on the processing

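Over all tested genes, the counts called stayed within 1.5 times of 2709 higher and 2693 lower under every alternative run: 1937 and 1989 with the DESeq2 test, 3167 and 2433 with library totals alone, 2889 and 2727 with no filter, and 2184 to 2703 and 2322 to 2595 when each library was left out. The same 9 members were higher in each fit. IL34 is among them, although it entered the main test through its oeTNFRSF12A libraries alone and had to differ. The count of lower members was 3 to 6 over the fits that left out a library: CXCL8 and CXCL16 were lost without oeControl replicate 3, CXCL8 without oeTNFRSF12A replicate 2, and IL11 or IL12A gained without oeTNFRSF12A replicate 1 or 2 (IL12A adjusted p = 0.0456). DESeq2 lost CXCL16, and no filter added CXCL11. No called log2 fold change and no count ratio changed direction under these alternatives. Among values that did not pass, CCL20 (0.17) was -0.01 without oeControl replicate 1 and -0.07 without oeTNFRSF12A replicate 2, and RELA (-0.01) was 0.0077 with library totals and 0.02 without oeControl replicate 2. LIFR, a receptor chain chosen after its values were seen and not past the threshold (log2 fold change -0.18), passed with no filter and without oeTNFRSF12A replicate 1 (-0.29).

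With the replicate number as a block, 2711 genes were higher and 2685 lower, and the members' calls were as before (9 and 5). Deviations from the group means correlated by -0.019, 0.017 and 0.035 between same-numbered libraries, so the numbers do not show a pairing, and not every library correlated best with its own number. At about 18 counts per CPM, differences in members with under 10 counts per library are limited by counting error.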

Other observations

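Cytokines and chemokines outside the 35 members were mostly not detected or low. Of 45 such genes 38 stayed under 1 CPM in every library, 22 had 0 counts in all of them, and 8 could be tested. TGFB1, a cytokine that restrains immune cells and drives matrix production, fell from 115.2 ± 1.14 to 93.5 ± 1.22 CPM (log2 fold change -0.30, SE 0.04, adjusted p = 2.23e-07, edgeR quasi-likelihood test, n = 3 per group). GDF15, a stress-induced cytokine of the TGF-beta superfamily, fell from 48.0 ± 2.33 to 39.8 ± 1.43 CPM (-0.27, SE 0.05, adjusted p = 1.22e-04). None of the 8 tested genes rose in this test and 2 fell, against 21.2% higher and 21.1% lower over all tested genes. IL15 (log2 fold change 0.22, adjusted p = 0.380) and IL17D (-0.28, adjusted p = 0.293) did not pass, nor did the abundant cytokine MIF (chosen after its values were seen), which had 108.2 ± 2.84 CPM in oeControl and 104.9 ± 6.66 CPM in oeTNFRSF12A.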
